A study of Homo sapiens with 2 samples.

Results

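The genes described here encode the machinery that copies chromosomal DNA, from the proteins that mark and license replication origins to the helicase, polymerases and accessory factors of the moving fork. They were listed by name and role, with no measured value in the rule, although earlier results of these data were known when the list was made: 50 genes were listed, and 49 of them had a value among the 12353 genes in the table. PRIM2, the large primase subunit, was the only listed gene without one. The data are nascent RNA levels from GRO-seq (global run-on sequencing) of BJ cells, a human skin fibroblast line, kept in medium with 10% serum and given no treatment. In this assay isolated nuclei receive a brominated nucleotide, here for 5 min at 30 °C, and only transcripts under way are lengthened and captured, so a value reflects engaged polymerase and not the amount of mature mRNA or protein. The series holds 2 libraries of this single group, labelled as biological replicates and called library a and library b here, so there was no second condition and no test between conditions. Levels are given in FPKM, fragments per kilobase of gene scaled to library size, as deposited.

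As background, a replication origin is bound by the origin recognition complex (ORC), which with CDC6 and CDT1 loads the ring-shaped MCM2-7 helicase onto DNA in the G1 phase, a step called licensing. In S phase, kinases activate the ring by adding CDC45 and GINS, and DNA polymerases, the sliding clamp PCNA and its loader RFC then assemble at the fork. Many of these genes are known targets of E2F transcription factors, which drive their transcription as cells pass from G1 into S phase. Skin fibroblasts in culture divide until they become quiescent or senescent, and the share of these cells in each cycle phase is not stated in the labels.

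All 10 fibroblast markers examined had values, the highest being COL1A1 at 649 ± 48.1 and VIM at 539 ± 9.28 (mean ± SD, n = 2, as for all such values below). Their median was 103, and the lowest, COL6A1, was at 11.7 ± 1.77, close to the median of all genes. Of 6 endothelial markers none had a value, and of 8 keratinocyte and epithelial markers 2 did, the higher being KRT15 at 3.74 ± 0.417. The leukocyte list had 1 of 6, CD68 at 114 ± 2.44, and the melanocyte list 3 of 6, from 3.17 to 22.4. Read depth is unknown, because FPKM was given without counts, and an SD over 2 libraries is itself imprecise.

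What the promoters of these genes carry is shown first, because the levels below are read beside it. RefSeq promoter windows on GRCh38.p14, from 250 bases before to 50 bases after the first start site listed for a gene, were found for 42 of the 50 genes. MCM4, MCM5, GINS4, POLD3, RPA2, RPA3, DNA2 and DONSON had no entry. Windows were searched on both strands for the E2F-type octamers TTTCCCGC, TTTGGCGC, TTTCGCGC and TTTGCCGC, whose matches can overlap one another on opposite strands. Of the 42 windows, 20 (47.6%) held at least 1 match, against 5.34% of the 9888 protein-coding genes with a value and a window. With the first pair of octamers alone the count was 17 (40.5%), against 3.72% of those genes. A match describes these letters and does not show that a factor is bound.

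The following 4 windows are those of CDC6 and PCNA, the highest genes with a match, of MCM6, whose window holds the most matches, and of RFC4, the highest gene of all, whose window holds none. Only exact octamers were counted, and the RFC4 window does hold near-matches. Capitals mark the E2F-type matches, and each sequence reads 5′ to 3′ along the gene's own strand.
CDC6, chr17:40287629-40287928, plus strand: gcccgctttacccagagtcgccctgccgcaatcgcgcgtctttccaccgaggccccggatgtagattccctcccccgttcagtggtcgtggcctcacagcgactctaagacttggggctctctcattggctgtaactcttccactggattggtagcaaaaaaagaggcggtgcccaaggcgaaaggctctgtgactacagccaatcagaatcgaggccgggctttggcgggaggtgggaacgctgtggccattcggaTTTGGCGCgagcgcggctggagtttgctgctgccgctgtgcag
PCNA, chr20:5126573-5126872, minus strand: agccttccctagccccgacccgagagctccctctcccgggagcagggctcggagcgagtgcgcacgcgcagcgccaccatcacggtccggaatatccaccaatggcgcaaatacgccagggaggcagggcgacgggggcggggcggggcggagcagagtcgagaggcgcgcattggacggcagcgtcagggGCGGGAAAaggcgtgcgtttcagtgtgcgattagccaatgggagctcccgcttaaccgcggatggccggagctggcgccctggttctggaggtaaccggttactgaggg
MCM6, chr2:135876394-135876693, minus strand: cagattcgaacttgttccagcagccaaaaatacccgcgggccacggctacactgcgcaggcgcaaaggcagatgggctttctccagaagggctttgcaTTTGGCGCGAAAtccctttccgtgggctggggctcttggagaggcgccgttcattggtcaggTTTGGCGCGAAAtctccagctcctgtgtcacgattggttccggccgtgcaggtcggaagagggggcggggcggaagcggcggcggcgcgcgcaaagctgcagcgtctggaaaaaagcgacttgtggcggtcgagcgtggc
RFC4, chr3:186806433-186806732, minus strand: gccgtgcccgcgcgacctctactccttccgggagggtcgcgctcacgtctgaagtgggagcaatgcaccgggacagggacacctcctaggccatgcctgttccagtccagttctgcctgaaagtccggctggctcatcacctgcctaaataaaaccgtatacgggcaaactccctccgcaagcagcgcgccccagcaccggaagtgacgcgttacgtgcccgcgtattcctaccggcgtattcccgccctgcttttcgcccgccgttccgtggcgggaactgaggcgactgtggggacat

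Merging overlapping matches gave 23 sites in the 20 windows, of which 18 began within the last 100 bases before the start or after it. Before merging, 20 of 26 matches (76.9%) began there, against 50.7% of the matches in all 15841 protein-coding windows, a difference that was not tested. Shorter stretches with 10 bases on either side show examples from licensing (CDT1), the helicase ring (MCM2, MCM3, MCM7), GINS, the leading-strand polymerase epsilon (POLE, POLE2) and the checkpoint mediator CLSPN. Their likeness was set by the search. For MCM3 and MCM7, which have another site upstream, the one nearer the start is shown, and CDC45, ORC1, RFC4, RFC5 and PRIM1 are among the genes whose windows held no match. In MCM2 the site is a 12-base palindrome, TTTCGCGCGAAA, that matches on both strands, and both sites of MCM6 read TTTGGCGCGAAA.
CDT1, chr16:88803744-88803771, plus strand: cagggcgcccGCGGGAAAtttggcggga
MCM2, chr3:127598403-127598434, plus strand: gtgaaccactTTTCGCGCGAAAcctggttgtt
MCM3, chr6:52284729-52284756, minus strand: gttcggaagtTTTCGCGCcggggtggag
MCM7, chr7:100101389-100101416, minus strand: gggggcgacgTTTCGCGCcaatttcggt
GINS1, chr20:25407668-25407695, plus strand: gctttgttcgGCGCCAAAgcgcggagcg
GINS2, chr16:85688968-85688995, minus strand: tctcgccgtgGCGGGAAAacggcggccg
GINS3, chr16:58392456-58392483, plus strand: gtccccgggcGCGGGAAAcgagtttcaa
POLE, chr12:132687343-132687370, minus strand: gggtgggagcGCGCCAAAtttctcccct
POLE2, chr14:49688202-49688229, minus strand: tgcggcggtgGCGCCAAAtcgcaaatat
CLSPN, chr1:35769966-35769993, minus strand: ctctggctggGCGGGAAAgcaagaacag

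Among the same windows, 25 of 42 (59.5%) held a CCAAT box, the letters CCAAT on either strand, against 36.9% of genes with a value. The cell cycle homology region (CHR), an element known from genes of G2 and mitosis and searched as TTTGAA or TTCGAA, was found in 1 of 42 (2.38%), that of MCM6, against 11.3% of genes with a value. In 45 windows of 54 related replication genes, listed further on, an E2F-type match occurred in 5 (11.1%) and a CHR in 8 (17.8%). No difference between these shares was tested. Levels overlapped widely between members with and without a match. The 20 genes with one had a median FPKM of 12.7 (13.0 in library a, 13.5 in library b) and the 21 without one had a median of 15.9 (16.6 and 14.8), and the levels spanned 6.18 to 86.3 with a match and 5.91 to 135 without.

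**Figure D1:**
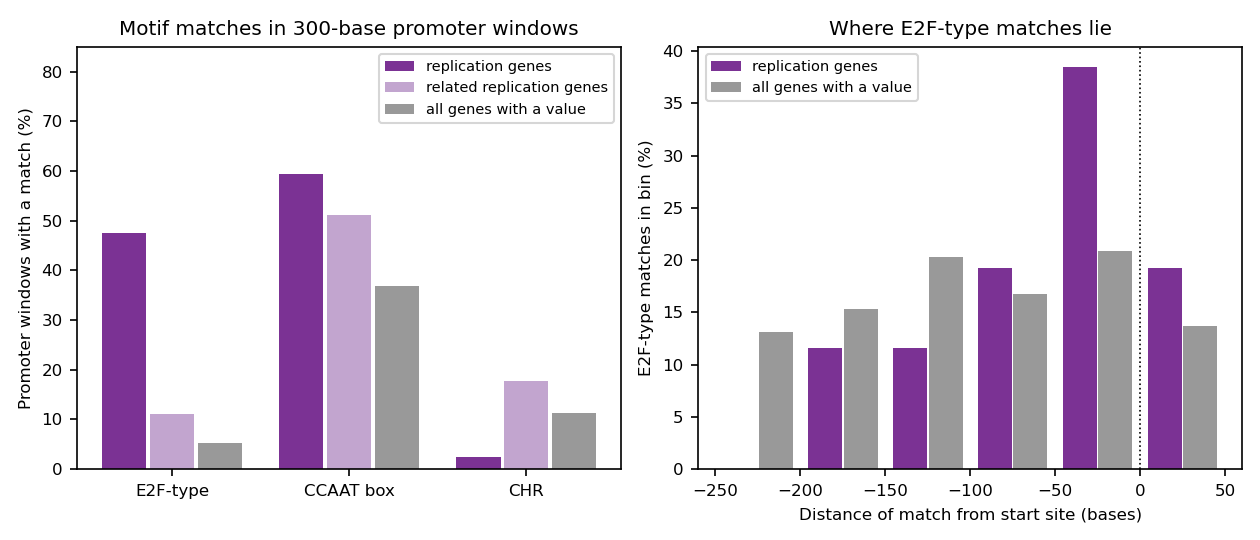
Left, the percentage of 300-base promoter windows with at least 1 match to the E2F-type octamers, the CCAAT box or the CHR, for replication genes (42 windows), related replication genes (45) and all protein-coding genes with a value (9888). Right, where the E2F-type matches lie relative to the start site in 50-base bins, as a percentage of all such matches: 38.5% of the members' 26 matches fall in the last bin before the start, against 20.9% of those of all genes with a value.

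Levels of the replication genes lay around and above that of the typical gene. Library a gave them a median FPKM of 16.6 and library b one of 14.2, against 11.8 and 11.7 for all genes. By the mean of both libraries the median was 15.7, which is 1.34 times the median gene. Of the 49 genes, 33 (67.3%) stood above the median gene, against 50% of all genes, and 2 (4.08%) lay in the lower quartile of the table, against 25%. At the top the share was near the background: 15 (30.6%) were in the upper quartile, against 25%, and 7 (14.3%) in the upper decile, against 10.0%. The table holds genes above some minimum only, so these shares refer to genes with a value. In bulk cultures, fewer cells in S phase and less transcription per cell cannot be told apart. The 7 in the upper decile were RFC4, CDC6, PCNA, GINS1, MCM7, RNASEH2A and GMNN, and the lowest were PRIM1 and POLA1, both of the enzyme that starts new strands. The 49 genes made up 0.294% of the summed FPKM of library a and 0.292% of that of library b. Both sums include mitochondrial genes, so the share among the other genes is larger.

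**Figure D2:**
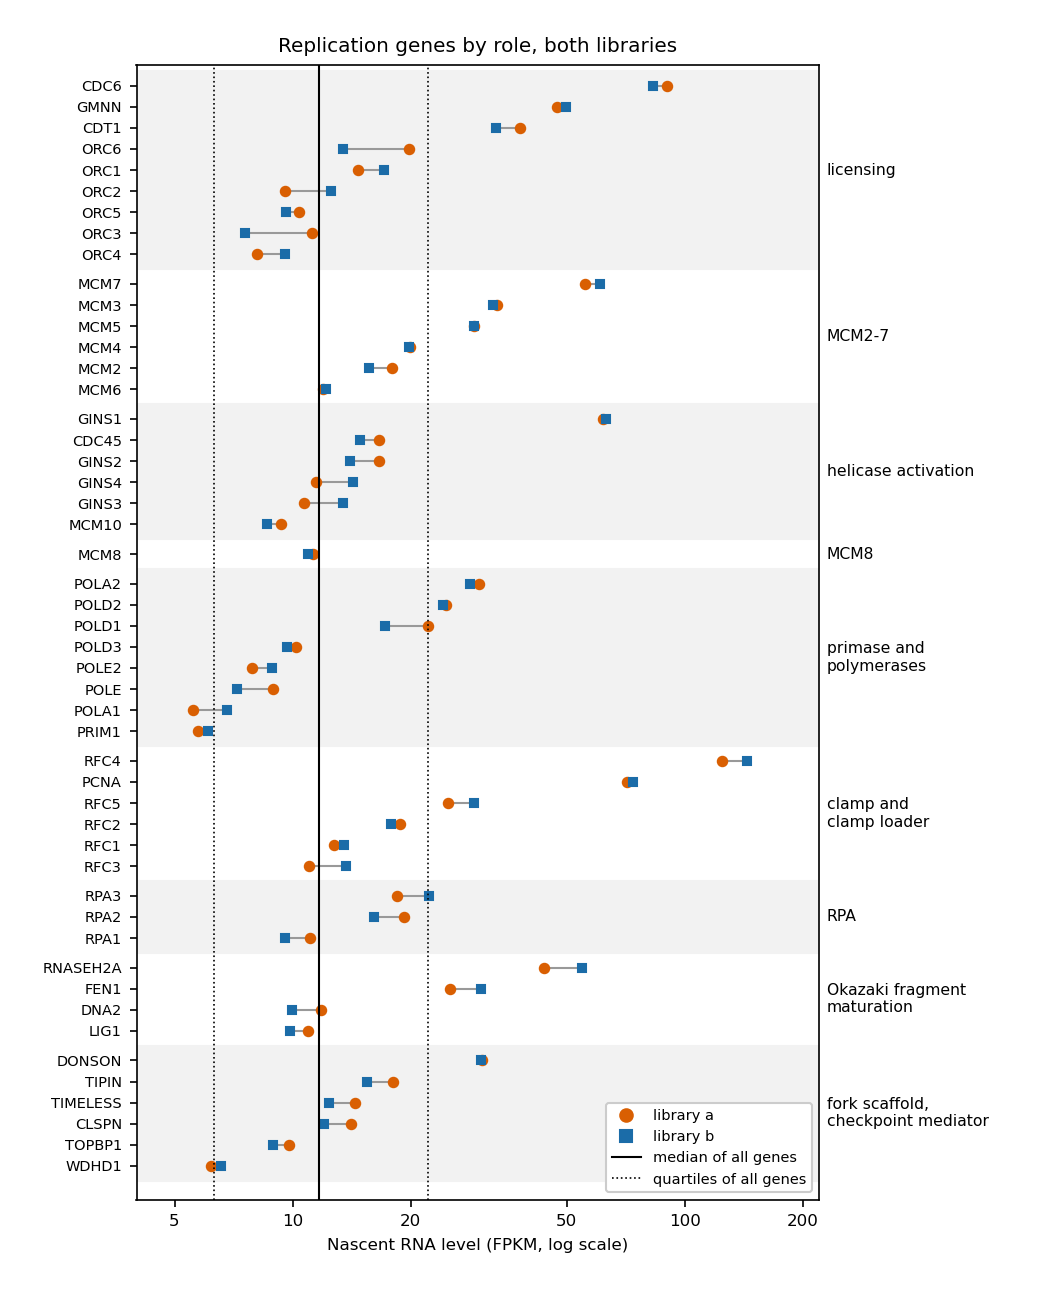
FPKM of the 49 genes on a log axis, grouped by role, with a circle for library a and a square for library b joined by a line; the solid vertical line is the median of all genes (11.7) and the dotted lines are their quartiles (6.29 and 22.2). The roles overlap widely, with RFC4 (125 and 145) farthest to the right and PRIM1 (5.74 and 6.07) and POLA1 (5.57 and 6.79) at the left.

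Of the licensing genes, the loaders and their inhibitor stood far above the origin-binding complex. CDC6, the ATPase that joins ORC to load the helicase, was at 89.9 in library a and 82.8 in b. CDT1, which brings the MCM ring to ORC, was at 38.0 and 33.1, so that CDC6 exceeded it 2.43-fold (log2 ratio 1.28 ± 0.0565). GMNN encodes geminin, which binds CDT1 and prevents a second round of licensing, and was at 47.3 and 49.9. It stood 1.37-fold above CDT1 (log2 ratio 0.45 ± 0.195), with no overlap between the libraries of the 2 genes.

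The ORC subunits were transcribed at lower levels. ORC1, the subunit whose abundance is known to vary through the cycle, was at 14.7 in library a and 17.2 in b, and ORC6, the smallest subunit, at 19.9 and 13.4. The other subunits form the core that stays together through the cycle. ORC2 was at 9.58 and 12.6, ORC3 at 11.2 and 7.56, ORC4 at 8.13 and 9.59, and ORC5 at 10.4 and 9.64. All libraries of ORC1 and ORC6 lay above all libraries of these 4, and the median of the pair was 1.66-fold higher (log2 ratio 0.79 in library a and 0.67 in b). Among ORC2 to ORC5 the order differed between the libraries, so these 4 levels cannot be ranked. ORC1 and ORC6 differed in opposite directions between libraries and cannot be ranked either.

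The 6 subunits of the MCM2-7 ring are present once each in the loaded helicase, yet their genes ranged over 4.82-fold. MCM7 was highest, at 55.6 in library a and 60.9 in b. MCM3 followed at 33.2 and 32.4, then MCM5 at 29.0 in each library and MCM4 at 19.9 and 19.8. MCM2, the subunit that also binds histones, was at 18.0 and 15.7, and MCM6 was lowest at 12.0 and 12.2. The order of the 6 was the same in both libraries and no 2 of them overlapped, so the range of 4.64-fold in library a and 5.01-fold in b was much wider than the spread between libraries. All 6 stood above the median gene. Their median of 24.4 in each library exceeded that of ORC2 to ORC5 (9.98 and 9.62) by 2.49-fold (log2 ratio 1.32 ± 0.0357).

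The annotated span of MCM7 on chromosome 7 also holds the precursors of 3 microRNAs. Whether that stretch was counted in the MCM7 value is not given in the sources at hand. The microRNAs are known as the miR-106b-25 cluster and are made from the MCM7 transcript. Their main arms are shown with the seed (bases 2 to 8) in capitals, from RefSeq on GRCh38.p14: miR-106b-5p and miR-93-5p share the seed AAAGUGC, whereas miR-25-3p has AUUGCAC. Mature microRNAs were not measured here.
hsa-miR-106b-5p: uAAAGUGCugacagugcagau
hsa-miR-93-5p: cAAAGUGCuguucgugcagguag
hsa-miR-25-3p: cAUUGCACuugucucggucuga

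Of the factors that turn the loaded ring into an active helicase, only GINS1 was in the upper decile. GINS is a tetramer of 4 different subunits that stabilises the ring with CDC45. GINS1 was at 62.0 in library a and 62.8 in b. GINS2 was at 16.6 and 14.0, GINS4 at 11.5 and 14.2, and GINS3 at 10.7 and 13.4, so GINS2 lay above GINS3 and GINS4 overlapped both. GINS1 exceeded GINS2 by 4.09-fold (log2 ratio 2.03 ± 0.188) and GINS3 by 5.21-fold (2.38 ± 0.219). CDC45, at 16.6 and 14.8, overlapped GINS2 and MCM2 and lay above GINS3 and GINS4. MCM10, an activation factor that is not part of the ring, was at 9.33 and 8.62. MCM8, which despite its name acts with MCM9 in recombination rather than in the replicative ring, was at 11.3 and 11.0, and MCM9, whose span holds ASF1A (16.4 and 17.5), was at 4.70 and 5.43.

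The primase and polymerase genes formed the lowest role group, with a median of 9.15 by the mean of both libraries, below the median gene, and 3 of 8 genes above it. Polymerase alpha and primase together lay down the RNA-DNA primers. POLA2, the accessory subunit, was at 29.9 in library a and 28.3 in b, whereas the catalytic subunit POLA1 was at 5.57 and 6.79 and the small primase subunit PRIM1 at 5.74 and 6.07. POLA2 thus stood 4.73-fold above POLA1 (log2 ratio 2.24 ± 0.255) and 4.93-fold above PRIM1 (2.30 ± 0.110), and the latter pair overlapped. In polymerase delta, which copies the lagging strand, the catalytic POLD1 was at 22.1 and 17.2, POLD2 at 24.6 and 24.2 and POLD3 at 10.2 and 9.67. The order was the same in both libraries. In polymerase epsilon, the catalytic POLE was at 8.90 and 7.20 and POLE2 at 7.89 and 8.85, which did not differ beyond their spread. POLD1 stood 2.44-fold above POLE (log2 ratio 1.28 ± 0.0395).

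The clamp and its loader included the highest gene of the set. PCNA, the ring that tethers polymerases to DNA, was at 71.4 in library a and 73.6 in b. RFC4, a small subunit of the clamp loader, was at 125 and 145. The other small subunits were at 24.9 and 29.0 (RFC5), 18.8 and 17.9 (RFC2) and 11.0 and 13.7 (RFC3), and the large subunit RFC1 was at 12.7 and 13.6. RFC3 was lowest in library a and RFC1 in b, so this pair cannot be ranked. RFC4 exceeded RFC5, the next, by 5.00-fold in library a and 4.99-fold in b, and RFC3 by 10.9-fold (log2 ratio 3.45 ± 0.0670). This was the widest ratio between subunits of any complex examined, and the smallest was that of POLE and POLE2. Only subunits in the member list were compared, so POLD4, POLE3 and POLE4, given further on, were left out. POLE3 (27.4 and 24.25) stood above both POLE and POLE2, so the closeness of that pair does not extend to all of polymerase epsilon. RFC4 lies tail-to-tail with EIF4A2, a translation initiation gene at 439 in library a and 453 in b, 3.52 and 3.13 times RFC4. Tail-to-tail means that the genes are transcribed toward each other, and whether reads were counted by strand is not given in the sources at hand, so the part of EIF4A2 reads in the RFC4 value was not tested.

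High neighbours were counted for all members. An adjacent protein-coding gene in the upper decile of the table was found for 9 of 49 genes (18.4%), against 14.3% of all genes placed. These were CDT1, DONSON, FEN1, GMNN, MCM7, ORC3, RFC1, RFC4 and TOPBP1, and EIF4A2 was the highest such neighbour. MCM7 ends toward COPS6 (77.2 and 79.5), and CDT1 toward APRT (64.1 and 59.7). CDC6, PCNA and GINS1, by contrast, had no such neighbour.

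The single-strand binding complex RPA coats unwound DNA. RPA1, which makes most of the contacts with DNA, was at 11.1 in library a and 9.59 in b, RPA2 at 19.3 and 16.1, and RPA3 at 18.4 and 22.2. RPA1 was lowest in both libraries, and the other pair overlapped.

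Lagging-strand fragments are finished by removal of the primer and ligation. RNASEH2A, the catalytic subunit of RNase H2, which cuts RNA in RNA-DNA hybrids, was at 43.9 in library a and 54.6 in b. The flap nuclease FEN1 was at 25.2 and 30.3, the nuclease-helicase DNA2 at 11.8 and 9.97 and the ligase LIG1 at 11.0 and 9.87. RNASEH2A exceeded LIG1 by 4.71-fold (log2 ratio 2.24 ± 0.330), and LIG1 and DNA2 overlapped. The partners of RNASEH2A in its trimer also differed: RNASEH2C was at 39.4 and 40.0 and RNASEH2B at 8.39 and 6.36, 6.70-fold below RNASEH2A. The span of RNASEH2C overlaps that of KAT5 (56.2 and 56.5).

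Genes that hold the fork together or signal its stalling lay mostly near the median gene. DONSON, a factor known for helicase assembly and fork stability, was at 30.5 in library a and 30.3 in b. TIMELESS and TIPIN encode partners that couple helicase and polymerase, and stood at 14.4 and 12.4 and at 18.0 and 15.5, with TIMELESS at 0.80 of TIPIN in each. CLSPN, encoding the mediator claspin that works with them, was at 14.1 and 12.0. TOPBP1, which activates the checkpoint kinase ATR and also helps origins to fire, was at 9.82 and 8.89. WDHD1, the scaffold that links polymerase alpha to the helicase, was at 6.18 and 6.57, close to POLA1 and PRIM1.

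Taking all 49 in order of mean level, 37 of the 48 neighbouring pairs had overlapping library values and so could not be ranked. The exceptions were mostly at the top: RFC4, CDC6, PCNA, GINS1 and MCM7 were each separated from the gene below. Below RPA3 only the step from POLE (8.05 ± 1.20) to WDHD1 (6.38 ± 0.276) was free of overlap.

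None of the 49 genes differed by over 1.5-fold between the libraries after adjustment to the median of all genes, against 2.16% of all genes. With a background that low, the count does not set the members apart. The median factor between libraries was 1.15, slightly above the 1.10 of all genes, and 21 of 49 were higher in library b, against 46.4% of all genes. The median log2 difference over the members, relative to all genes, was -0.0097. The widest were ORC6 and ORC3, each 1.48-fold higher in library a, followed by ORC2 (1.31-fold, higher in b), POLD1 (1.28-fold, higher in a) and GINS3 (1.26-fold, higher in b). MCM5 and MCM4 were closest, with factors of 1.000 and 1.005.

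**Figure D3:**
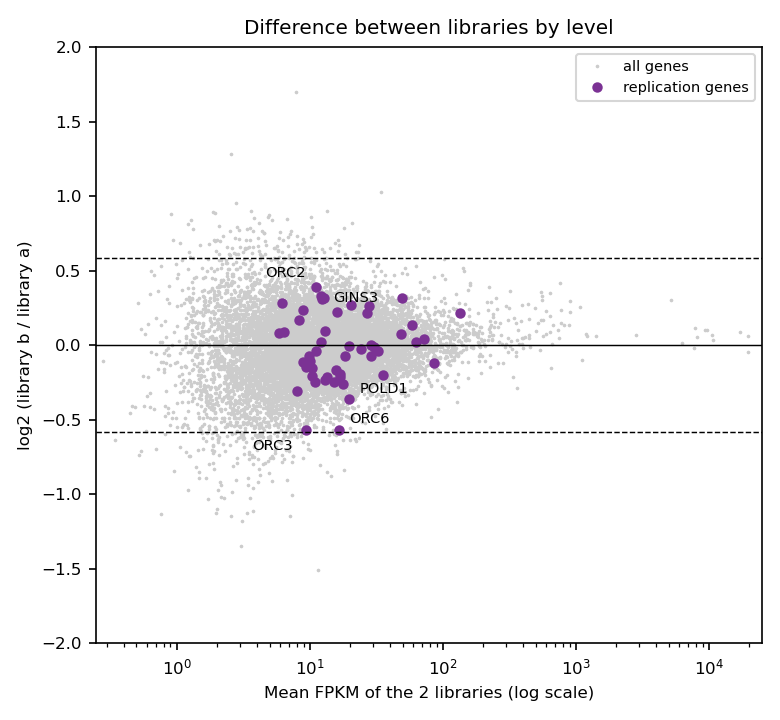
The log2 ratio of library b to library a against the mean FPKM (log axis), for all 12353 genes (grey points) and the 49 replication genes (purple circles), with dashed lines at 1.5-fold. All purple circles lie between the dashed lines, and ORC3 and ORC6 are nearest to the lower one.

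Several of the genes share a start region with another gene. Among 41 members with a value and a window, 14 (34.1%) had a protein-coding partner on the other strand that starts within 1000 bases and is transcribed away from it, against 16.6% of all genes with a value and a window. Both genes had values in 12 pairs. The replication gene was higher in both libraries in 6 and the partner in 4, and in 2 the order differed. PCNA and CDS2, a phospholipid synthesis gene, were the most unequal, with CDS2 at 7.50 in library a and 6.21 in b, so PCNA was 9.52 and 11.9 times as high. MCM7 stood 2.47 and 2.74 times above AP4M1 (22.5 and 22.3), an adaptor subunit of vesicle transport. On the other side, SOCS4 (15.5 and 16.2) stood above WDHD1, RARS2 (22.2 and 23.7) above ORC3, TMEM258 (45.6 and 49.7) above FEN1 and PRPF38A (24.2 and 28.8) above ORC1. MCM2 and TPRA1 (17.3 and 17.4) did not differ beyond their spread.

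**Figure D4:**
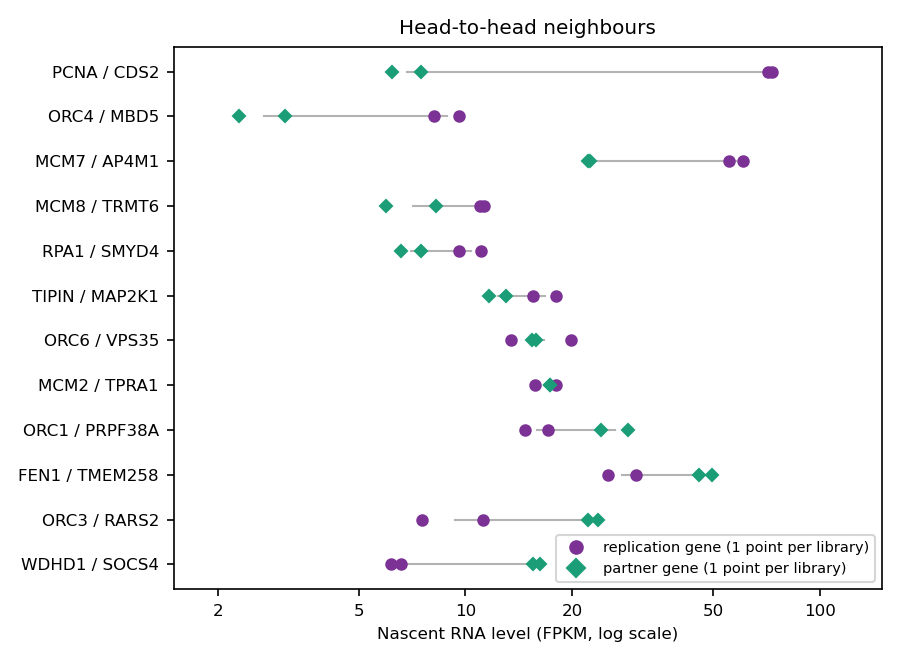
FPKM (log axis) of 12 replication genes (purple circles, 1 for each library) and of the genes that start within 1000 bases on the other strand (green diamonds), joined by a line between means and ordered by their ratio. The pairs run from PCNA, 9.52 and 11.9 times above CDS2, to WDHD1, at 0.399 and 0.405 of SOCS4, by the ratio of means. ORC3 was at 0.503 and 0.320 of RARS2, so these lowest 2 pairs cannot be ranked.

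Overlapping annotation makes some values uncertain where strand was not used in the counting. On GRCh38 the spans of ORC1, ORC3, ORC4, MCM7, GINS2 and RFC5 overlap a protein-coding gene that also has a value. In that order these are PRPF38A, AKIRIN2 (47.8 in library a and 46.8 in b), MBD5 with ACVR2A, AP4M1, GSE1 (7.90 and 7.77) and WSB2 (39.0 and 39.6). RPA3 overlaps UMAD1, and PCNA, MCM8, LIG1 and CLSPN overlap an antisense RNA gene named after them. These are not all: with every annotated gene type, 27 of the 50 listed genes overlap another gene, and 13 overlap a long noncoding RNA gene. The small RNA genes SCARNA14 and SCARNA23 lie inside TIPIN and POLA1. How far those genes enter the values was not tested.

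Other genes of replication control were examined in lists chosen by name. Of 54 genes in 7 lists, 50 had a value, with a median FPKM of 19.8 in library a and 19.4 in b. There were 35 (70.0%) above the median gene, against 50% of all genes, and 5 (10.0%) in the lower quartile, against 25%. The upper quartile held 17 (34%), against 25%, and the upper decile 4 (8%), against 10.0%. RECQL4, GMNC, POLDIP2 and UHRF1 had no value. Among kinases and cyclins of origin firing, the S phase cyclin gene CCNA2 was highest by the mean at 39.2 and 40.7. It overlapped CDK2 (37.2 and 39.6), and its span overlaps EXOSC9 (27.0 and 32.4). Of the G1/S cyclin genes, CCNE1 was lowest of the list at 2.92 and 3.50, 12.5-fold below CCNA2. The other, CCNE2, whose span overlaps INTS8 and NDUFAF6, was at 11.8 and 11.6. The firing kinase gene CDC7 was at 21.1 and 21.7 and its activator DBF4 at 12.2 and 13.3.

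Among regulators of firing and licensing, MCMDC2 was highest (50.3 and 45.7), and its span holds the noncoding gene SNHG6 and the small nucleolar RNA gene SNORD87. HELB, a helicase, was lowest (4.31 and 3.83). In the accessory polymerase subunits POLD4, the smallest subunit of polymerase delta, led at 66.3 and 70.4, above all 3 delta subunits given earlier, and POLE4 was lowest at 8.02 and 8.26. Of clamp partners, PCLAF, a small PCNA-binding protein gene, was at 24.8 and 21.2. RFC2 to RFC5 also serve in other clamp loaders, each with its own large subunit: CHTF18 was at 21.7 and 19.9, with GNG13 (17.2 and 6.05) overlapping its span, ATAD5 at 9.26 and 9.50, lowest of its list by the mean but overlapping DSCC1 (10.8 and 8.57), and the checkpoint loader gene RAD17, which overlaps AK6 (21.3 and 21.4), at 6.53 and 8.41. In chromatin assembly, the histone chaperone gene ASF1B was at 45.2 and 40.4 and MMS22L, a fork repair factor, at 6.11 and 5.13. In the checkpoint, the effector kinase gene CHEK1, whose span holds ACRV1 (9.55 and 11.2), was at 38.0 and 40.1 and the sensor kinase gene ATR at 5.69 and 4.87. TOP2A, the topoisomerase that untangles replicated DNA, was at 55.6 and 50.04.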

How the data were processed

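GRO-seq libraries of untreated BJ cells formed 1 group of 2. The authors deposited FPKM values per Ensembl gene, 1 column a library. Bowtie2, HTSeq and hg19 are named, without versions, in the submitters' processing notes. The gene length and read total behind each FPKM, and whether strand was used, are not given in the sources at hand. Its columns end in a and b and could not be tied to replicate numbers. Depth is unknown: ratios between the libraries of the 1022 genes below FPKM 3 did not gather at 1 value (at most 8 genes in a log2 bin of 0.002).

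An Ensembl name table gave symbols to 12202 of 12353 identifiers. Means, SDs, ranks and ratios were computed from FPKM as deposited with pandas 2.3.3. Differences between libraries used log2(FPKM + 0.1), centred on the median of all genes. Level differences between genes were read against the spread of the libraries, with no p-value. FPKM compares genes per length, so a ratio between genes rests on the length used. Neighbours, overlaps, windows and microRNAs came from RefSeq on GRCh38.p14, for names, order and sequence only. A gene may have several listed starts: the first was used for windows and all for head-to-head pairs. The code was tested on simulated data.

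The members, lists and motifs were chosen with earlier results of these data known. Full values were planned for the 5 highest and 5 lowest members, the extremes of each role and all MCM2-7 and ORC genes. The plan also covered the 5 widest differences between libraries, members overlapping another gene and the extremes of each related list. In the end they were given for all 49 members with a value. CDC7, DBF4, MCM9, CHTF18, RAD17, RNASEH2C, CDK2, DSCC1, POLE3 and CCNE2 were chosen after their values were seen. Alternatives were leaving out a library, a minimum mean FPKM of 1, quantile normalization and rescaling to TPM without mitochondrial genes. Other pseudocounts (1 and 0.01), geometric list means and other motif choices were also used.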

Additional observations from a re-analysis of the deposited data

How the results depend on the processing

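No paired analysis was possible because there is 1 group of 2 libraries. Quantile normalization and a minimum mean FPKM of 1 moved the members' median, the count in the upper quartile, both contrasts with ORC2 to ORC5, the widest subunit ratio and the median of related genes by less than the SD over libraries, or the counts by less than 1.5 times. Leaving out a library leaves the value of the other one, and with 2 libraries its shift from an average is below their SD by construction. It gave 14.2 to 16.6 for the members' median, 15 to 16 genes in the upper quartile, log2 ratios of 1.29 to 1.34 for MCM2-7 and 0.67 to 0.79 for ORC1 and ORC6 over ORC2 to ORC5, 10.7 to 11.3 for the widest subunit ratio and 19.4 to 19.8 for the median of related genes. Rescaling to TPM without mitochondrial genes, by construction, raised the members' median to 57.9 and that of related genes to 72.4, and left the count of 15 and the ratios within that spread. Geometric list means, taken on log2(FPKM + 0.1), in place of medians gave 17.8 for the members and 17.1 for related genes. By that measure the order of these lists turned. Pseudocounts of 1 and 0.01 and no centring left 0 genes over 1.5-fold between libraries. With any listed start, a choice made after seeing the data, 22 of 42 genes (52.4%) had an E2F-type match, against 6.53% of genes with a value and 17.8% of related genes. The ORC range, 1.88-fold on means, was 2.27 without library a and 2.44 without library b, and that of POLE and POLE2, 1.04-fold on means, was 1.23 and 1.13. Depth is unknown and limits ranking of genes near the median.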
